A study of Mus musculus with 15 samples.

Results

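Macrophages and neutrophils of the mouse host enter PDAC tumors, and their transcripts are part of the RNA of a whole tumor. The 10 genes described here were chosen by name for these cells, and all 10 were found among the 55291 genes of the table that compares DRP-104 with vehicle (VEH) tumors. Adgre1, Csf1r, Mrc1, Arg1, Cd14 and C1qa stand for macrophages and monocytes (6 genes), and S100a8, S100a9, Csf3r and Cxcr2 stand for neutrophils (4 genes). Mrc1 and Cd14 were also abundant in the tumor cells grown alone, so neither is a label for host cells only. The other 8 were scarce or absent in the tumor cells grown alone. Whether tumor cells express these 8 inside a tumor was not tested.

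Bulk RNA-seq covered 15 samples in 5 groups of 3, all from the murine PDAC line HY19636, which the labels give as KRASmut,p53 mut. The line was isolated from a pancreatic tumor of C57BL/6 mice in which Cre is driven by Ptf1a, a gene of the pancreatic lineage, so it is a single line grown from 1 model. Cultures in 10% FBS DMEM were left as controls (CNT), treated with DON, a Gln antagonist, at 25 µM for 24 h, or kept without Gln for 24 h (noGln). Orthotopic tumors grew from the same line in the pancreas of female B6J mice with an intact immune system, which were given VEH or DRP-104, a prodrug of DON, by intraperitoneal injection in repeated cycles of dosing and rest. All 5 groups therefore carry the same KRASmut,p53 mut tumor cells, and only the tumors hold host cells. The labels number the samples of each group 1 to 3, and nothing states that the cultures were separate experiments, so p-values measure the spread between these samples only.

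Macrophages depend on the receptor Csf1r and its ligands for survival and are the most common leukocytes in many PDAC tumors. Adgre1 encodes the F4/80 antigen, C1qa a chain of the complement protein C1q, Mrc1 the mannose receptor CD206, Arg1 the arginase of alternatively activated macrophages and Cd14 the co-receptor that hands lipopolysaccharide to Tlr4. Neutrophils are made in the bone marrow under Csf3 acting on Csf3r, and follow CXC chemokines into tissue through Cxcr2. S100a8 and S100a9 form calprotectin, the most abundant cytosolic protein of neutrophils.

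In the tumor table, values are normalized counts, in which every count of a library was divided by its size factor, and depth was 16.3 to 20.7 M (mega) reads in the 6 tumors. Of 26 further macrophage and monocyte genes, 24 were above 0 in every tumor, led by Spp1 (osteopontin) at 139120.0 to 240330.0 normalized counts, a gene that the cells alone also expressed at 111790.0 to 134640.0 in CNT. Lyz2 followed at 2340.5 to 5567 and C1qb at 709 to 2086. Of 22 further neutrophil genes, 11 were above 0 in every tumor. Ly6g, the antigen that defines mouse neutrophils in most sorts, did not exceed 8.94 normalized counts in any tumor and was at 0 in 3 of them, and Cxcr1 was at 0 in all 6. T cell genes summed to 1782 normalized counts in DRP-104 tumor 3 and to 73.3 to 139 in the other 5 tumors, and B cell genes to 1424 in VEH tumor 1, 1035 in DRP-104 tumor 3 and 107 to 205 in the rest, so these tumors stand apart from their own groups.

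The comparison of DRP-104 with VEH tumors asked whether the drug altered these transcripts in the whole tumor. No member was called higher or lower. All 10 members had a mean of at least 10 normalized counts, the minimum for the test, and limma gave adjusted p-values between 0.916 and 0.999, with none under 0.05. Among all 15454 genes tested limma called 0 as well, which is 0.0%, and 775 genes had an unadjusted p-value under 0.05, 0 of them members. On reads recovered from the values, edgeR called 0 genes and DESeq2 called 69, of which 0 were members. Fold changes were above 0 for 5 members and below 0 for 5, with a median log2 fold change of -0.08, beside -0.01 over all genes tested. The DRP-104 and VEH values overlapped for all 10 members. They did not overlap for 10.6% of the genes tested, a share at which none among 10 genes is not unusual. In bulk tumors, fewer cells of a type and less RNA per cell cannot be told apart.

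**Figure D1:**
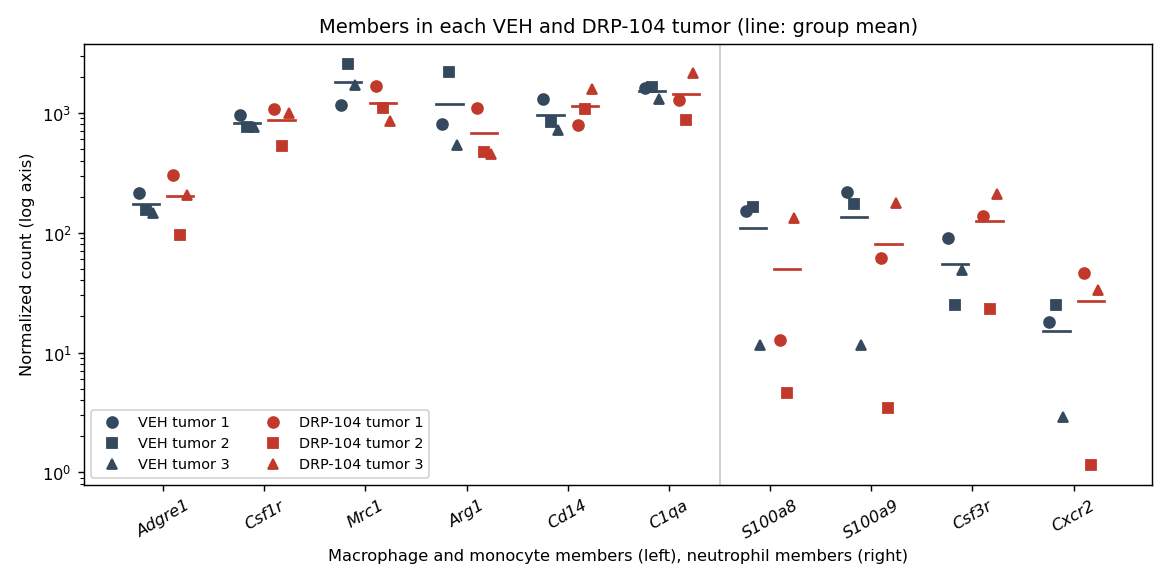
Normalized count (log axis) of each member in each of the 6 tumors of the first set, with VEH in dark blue, DRP-104 in red, 1 symbol per tumor number and a line at the group mean. Residual SDs over both groups are larger for the neutrophil members, on the right, than for the macrophage members, and no member separates the groups.

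Csf1r, the receptor that macrophages need to survive, was the most even of the 10. Its normalized counts were 1086, 526 and 999 in DRP-104 tumors 1 to 3 and 957, 765 and 764 in VEH tumors 1 to 3. The VEH tumors lay inside the range of the DRP-104 tumors, with DRP-104 tumor 2 the lowest of the 6. The log2 fold change was 0.01 ± 0.28 (SE), with a 95% interval from -0.63 to 0.64. Adgre1 counts were 303, 95.7 and 205 in the DRP-104 tumors and 215, 155 and 147 in the VEH tumors. DRP-104 held both the highest and the lowest tumor for this gene, at a log2 fold change of 0.09 ± 0.42. C1qa counts were 1270.4, 871 and 2156 with DRP-104 and 1616, 1638 and 1299 with VEH. Here too the 3 VEH tumors fell between the DRP-104 extremes, and the log2 fold change was -0.18 ± 0.30.

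Csf1r, Adgre1 and C1qa had their lowest value in the same tumor, DRP-104 tumor 2, in which C1qb (709) and C1qc (491) of the same complement complex and Lyz2 (2340.5) were also at their lowest. Mrc1 and Arg1 followed another order, with VEH tumor 2 the highest of the 6. Mrc1 counts were 1691, 1097 and 863 with DRP-104 and 1162, 2554 and 1691 with VEH. Arg1 counts were 1108, 475 and 450.0 with DRP-104 and 805, 2184 and 541 with VEH. Both genes had lower means after DRP-104, with log2 fold changes of -0.55 ± 0.33 for Mrc1 and -0.67 ± 0.53 for Arg1, and in both the highest DRP-104 tumor lay above at least 1 VEH tumor. The adjusted p-value from limma was 0.916 for Mrc1 and 0.920 for Arg1. Without VEH tumor 2, the log2 fold change of Mrc1 was -0.26 and that of Arg1 -0.09.

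VEH tumor 2 was also far above the other tumors for Chil3, Cd163 and Lyve1, 3 of the 26 further macrophage genes, which were picked here after their values were seen. Chil3, a chitinase-like protein of alternatively activated macrophages, stood at 1157 normalized counts in VEH tumor 2 and at 2.31 to 41.2 in the other 5 tumors. Cd163, a scavenger receptor, stood at 429 against 8.82 to 32.2, and Lyve1 at 272 against 18.5 to 68.4. Other genes of the list were not raised in the same way. Mertk stood at 261 against 144 to 213, Retnla was highest in DRP-104 tumor 3 at 4.90 against 2.78 in VEH tumor 2, and Ccr2, the receptor of incoming monocytes, stood at 27.8 against 225 in DRP-104 tumor 3.

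Cd14 went the other way, with counts of 787, 1068 and 1596 with DRP-104 and 1300.3, 842 and 721 with VEH. The DRP-104 mean was higher, the ranges overlapped, and the log2 fold change was 0.25 ± 0.30, falling to -0.01 when DRP-104 tumor 3 was left out. DRP-104 tumor 3, the highest for Cd14 and C1qa, is the tumor with the T cell transcripts given above. Their part in the values of the members was not tested.

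The neutrophil members were lower and far less even. S100a8 counts were 12.8, 4.61 and 133 with DRP-104 and 152, 165 and 11.6 with VEH. In each group low and high tumors differed by more than 10 times, and the groups overlapped over most of their range. The log2 fold change was -1.65 ± 1.34, with a 95% interval from -4.72 to 1.43. S100a9 counts were 62.0, 3.46 and 177 with DRP-104 and 217, 174 and 11.6 with VEH, at a log2 fold change of -1.09 ± 1.48. Its direction rested on DRP-104 tumor 2, since the log2 fold change turned to 0.44 when it was left out.

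The receptors did not follow the same order as calprotectin. Csf3r counts were 138, 23.1 and 212 with DRP-104 and 91.2, 25.1 and 49.1 with VEH, at a log2 fold change of 0.86 ± 0.83, which ranged from 0.23 without DRP-104 tumor 3 to 1.80 without DRP-104 tumor 2. Cxcr2 counts were 46.0, 1.15 and 33.3 with DRP-104 and 17.9, 25.1 and 2.89 with VEH, at a log2 fold change of 0.29 ± 1.29. All 4 genes were lowest in DRP-104 tumor 2, where they rested on 4 reads (S100a8), 3 reads (S100a9), 20 reads (Csf3r) and 1 read (Cxcr2). VEH tumor 3 was low for S100a8, S100a9 and Cxcr2 as well, with 12, 12 and 3 reads. In DRP-104 tumor 1, S100a8 was 10 times below its level in DRP-104 tumor 3 while Csf3r and Cxcr2 stood in the upper part of the range. The ratio of S100a8 to S100a9, on the log2 scale, was -2.19 in DRP-104 tumor 1 and between -0.51 and 0.33 in the other 5 tumors.

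**Figure D2:**
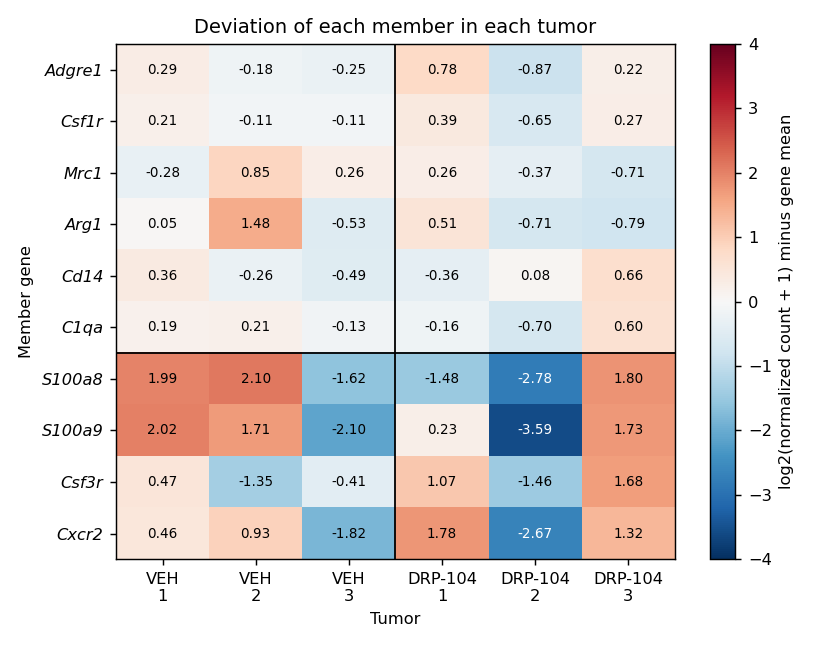
Deviation of each member in each tumor of the first set, as log2(normalized count + 1) minus the mean of that gene over the 6 tumors, printed in each cell and colored from blue (below) to red (above). DRP-104 tumor 2 is the lowest for 7 of the 10 members, and the 4 neutrophil rows below the line reach from -3.59 to 2.10.

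The spread within groups set what the comparison could show. The highest tumor exceeded the lowest by 35.8 times for S100a8, 62.8 times for S100a9, 40.0 times for Cxcr2 and 9.18 times for Csf3r. For the macrophage members this ratio lay between 2.07 (Csf1r) and 4.85 (Arg1). The spread within groups set what the comparison could show. The residual SD within groups of the neutrophil members was 1.34 to 2.53 on the log2 scale. It lay at percentiles 93.7 to 99.2 of all genes tested, whose median was 0.32. The residual SD of the macrophage members was 0.43 to 0.90, at percentiles 62.9 to 86.4. Among the 1000 genes nearest in mean count, the percentiles were 90.8 to 98.4 for neutrophil and 79.8 to 98.5 for macrophage members, so that at a matched level both kinds lay in the upper part and their ranges overlapped. DRP-104 tumor 2 was the lowest tumor for 7 members and the highest for 0.

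Of the 22 further neutrophil genes, Ngp and Camp, picked here after their values were seen, were higher in the 3 tumors with the most S100a8 and S100a9 than in the other three. Both are granule genes that neutrophils express as they mature in the marrow. Ngp, which encodes a granule protein, stood at 50.0 in DRP-104 tumor 3, 53.6 in VEH tumor 1 and 103 in VEH tumor 2, and at 0, 0 and 2.89 in the other three. Camp, the cathelicidin gene, stood at 26.5, 27.7 and 13.9 in the same tumors and at 0 to 1.15 elsewhere. The 3 genes of the further neutrophil list with the most counts, Mmp9, Lcn2 and Ltf, did not share this split. Ltf, which encodes lactoferrin, was at 209, 247 and 452 with DRP-104 and at 91.2, 107 and 30.8 with VEH, so that the groups did not overlap, and the same held in the FPKM table described below, as for 0.641% of the genes tested in both tables. Its adjusted p-value from limma was 0.916, and it was not called. Mmp9, a secreted protease, was at 477, 472 and 138 with DRP-104 and at 723, 917 and 518 with VEH, so that the groups did not overlap, with a log2 fold change of -1.15 ± 0.47 and an adjusted p-value of 0.916 from limma. In the FPKM table its groups overlapped, with a log2 fold change of -0.04. Lcn2, which encodes an iron carrier of neutrophils and epithelia, ranged from 164 to 558 with overlapping groups. In the FPKM table Lcn2 was at 67.3, 43.6 and 28.3 with DRP-104 and at 11.1, 8.65 and 4.60 with VEH, without overlap, and its log2 fold change of 2.37 ± 0.37 was not called (adjusted p-value 0.229, limma).

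S100a8 and S100a9 lie on chromosome 3 on opposite strands, 22597 bases apart between their annotated ends in GRCm38, the build that the coordinates of the FPKM table fit. Since these 2 genes had the largest residual SDs of the 10 members, their promoter windows, 250 bases before to 50 after the RefSeq start in GRCm38.p6, are shown. Capitals mark matches, on either strand, to GAGGAAG, a core read by the myeloid factor PU.1, or to TTGCNNAA, a form of the C/EBP site. The windows are chr3:90668821-90669120 on the plus strand and chr3:90695672-90695971 on the minus strand, each read 5′ to 3′ along its gene.
S100a8: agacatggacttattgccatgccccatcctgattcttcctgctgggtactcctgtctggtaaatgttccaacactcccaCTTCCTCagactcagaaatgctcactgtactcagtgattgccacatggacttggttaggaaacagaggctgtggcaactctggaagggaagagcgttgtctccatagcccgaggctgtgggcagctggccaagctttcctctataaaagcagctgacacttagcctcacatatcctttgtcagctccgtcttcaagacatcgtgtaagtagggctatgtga
S100a9: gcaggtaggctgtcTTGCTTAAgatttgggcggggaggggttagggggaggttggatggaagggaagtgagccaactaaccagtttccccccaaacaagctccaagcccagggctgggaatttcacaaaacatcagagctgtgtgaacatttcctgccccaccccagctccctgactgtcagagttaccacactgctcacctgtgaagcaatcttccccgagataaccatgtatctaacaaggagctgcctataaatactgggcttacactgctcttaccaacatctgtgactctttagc

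The S100a8 window held 1 match to GAGGAAG, on the minus strand with its first base at position -171 from the start, and 0 to TTGCNNAA. The S100a9 window held 1 match to TTGCNNAA at position -236 and 0 to GAGGAAG. Csf3r held 1 match to GAGGAAG at position -86, and Cxcr2 had neither. Of 32851 promoter windows in the RefSeq table, 13.6% held GAGGAAG and 10.8% held TTGCNNAA, so such matches are common and describe the letters only. The table held windows for 5 of the 10 members, without Adgre1, Csf1r, Arg1, Cd14 and C1qa.

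By the root mean square difference of deviations over the 6 tumors, on the log2 scale, the genes nearest to the mean neutrophil pattern among 10921 genes with a mean of at least 100 were Pltp (0.77), Saa3 (0.79), Ccl8 (0.79), Fgl2 (0.81) and Hfe (0.82). The median over these genes was 1.57. The members themselves lay at 0.67 (S100a9 and Cxcr2), 0.98 (S100a8) and 1.18 (Csf3r), so that Csf3r and S100a8 were farther from their own mean than the 5 genes were. Saa3 counts were 82.3, 56.5 and 486 with DRP-104 and 197, 198 and 47.2 with VEH. The nearest to the mean macrophage pattern were Habp4 (0.09), 3110039M20Rik (0.10), Sptssa (0.11), 1700066M21Rik (0.11) and Sesn1 (0.11), beside a median of 0.38, while the 6 members lay between 0.22 (Csf1r) and 0.61 (Arg1). Each member was farther from the mean of the 6 than these genes. The genes named for both patterns were picked as the nearest of 10921. Their lying nearer than members follows from that choice and does not measure how alike the members are.

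The FPKM table holds 6 columns labelled as DRP-104 and VEH tumors that matched none of the 6 tumors above. The highest correlation, across 10264 genes, of any of its columns with any tumor of the first set was 0.47 and that between columns of the same name was 0.08, so it served as a second set, used by group, and whether it comes from other mice is not stated. FPKM values are divided by gene length, so levels can be compared between genes. In VEH columns the order was C1qa at 99.0 ± 22.8 FPKM (SD, n = 3), Arg1 at 58.2 ± 16.01, Cd14 at 33.3 ± 3.93, Mrc1 at 19.4 ± 2.62 and Csf1r at 15.1 ± 4.63. S100a9 followed at 10.5 ± 4.21, S100a8 at 7.79 ± 2.82, Adgre1 at 4.54 ± 1.45, Csf3r at 2.22 ± 0.98 and Cxcr2 at 0.40 ± 0.28. Arg1 was above Cd14, Cd14 above Mrc1 and Csf3r above Cxcr2 with no overlap between the columns, and the ranges of the other neighbours overlapped. C1qa, a complement gene, thus led the macrophage members per length and Adgre1, the most used marker, was the lowest of them.

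With DRP-104, C1qa stood at 139 ± 30.5 FPKM and was above Arg1, at 52.4 ± 17.8, with no overlap. Of the 10 members, 9 passed the minimum mean of 0.5 FPKM and Cxcr2 did not. Limma called 0 of the 9, with adjusted p-values between 0.629 and 0.824, and called 0 of 14212 genes tested, which is 0.0%, with 1081 at an unadjusted p-value under 0.05. No count tool was run on this table. Adgre1 was the single member whose groups did not overlap, as for 19.3% of all genes tested. Its FPKM values were 10.4, 7.44 and 5.77 with DRP-104 and 5.04, 5.67 and 2.91 with VEH. The lowest DRP-104 column was just above the highest VEH column, and the log2 fold change was 0.68 ± 0.27, with an adjusted p-value of 0.629 from limma.

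Csf1r and C1qa also had higher means with DRP-104 in the second set. Csf1r stood at 30.2, 21.0 and 17.1 FPKM with DRP-104 and at 17.9, 17.6 and 9.73 with VEH, a log2 fold change of 0.57 ± 0.28. C1qa stood at 172, 133 and 111 with DRP-104 and at 103.7, 119 and 74.3 with VEH, a log2 fold change of 0.49 ± 0.22. In both genes 1 DRP-104 column fell below the highest VEH column. The partners C1qb and C1qc had log2 fold changes of 0.69 and 0.58. In the first set the same quantities were 0.09 for Adgre1, 0.01 for Csf1r, -0.18 for C1qa, 0.13 for C1qb and -0.28 for C1qc.

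Of the remaining members of the second set, Cd14 (log2 fold change 0.33 ± 0.23) and Csf3r (0.12 ± 0.23) were above 0 and the others below it. Mrc1 was at 15.7, 21.3 and 16.7 FPKM with DRP-104 and 16.5, 21.5 and 20.3 with VEH, the tightest of the members there (residual SD 0.21 on the log2 scale). Arg1 had a log2 fold change of -0.18 ± 0.30. S100a8 was at 4.60, 9.75 and 2.06 with DRP-104 and 4.54, 9.28 and 9.56 with VEH, a log2 fold change of -0.57 ± 0.46. S100a9 was at 3.89, 11.7 and 5.41 with DRP-104 and 5.77, 11.7 and 13.9 with VEH, a log2 fold change of -0.56 ± 0.41. Calprotectin again spread widely, with residual SDs at percentiles 98.7 and 98.1 of the genes tested, though the ratio of highest to lowest column, 4.72 for S100a8 and 3.58 for S100a9, was well under that of the first set. Across both sets, 8 of the 9 members tested in both had fold changes of the same sign, beside 42.9% of the 13269 genes tested in both, and none of these 9 was called in either set. Members of a cell type are not independent of each other. In the first set Adgre1, Csf1r (log2 fold change 0.01 with all libraries), Cd14 and S100a9 changed sign when 1 library or another was left out. In the second set Arg1 (-0.35 to 0.14) and Csf3r (-0.078 to 0.35) did so. Of the 8, only Mrc1 and S100a8 kept their sign in both sets with each library left out.

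**Figure D3:**
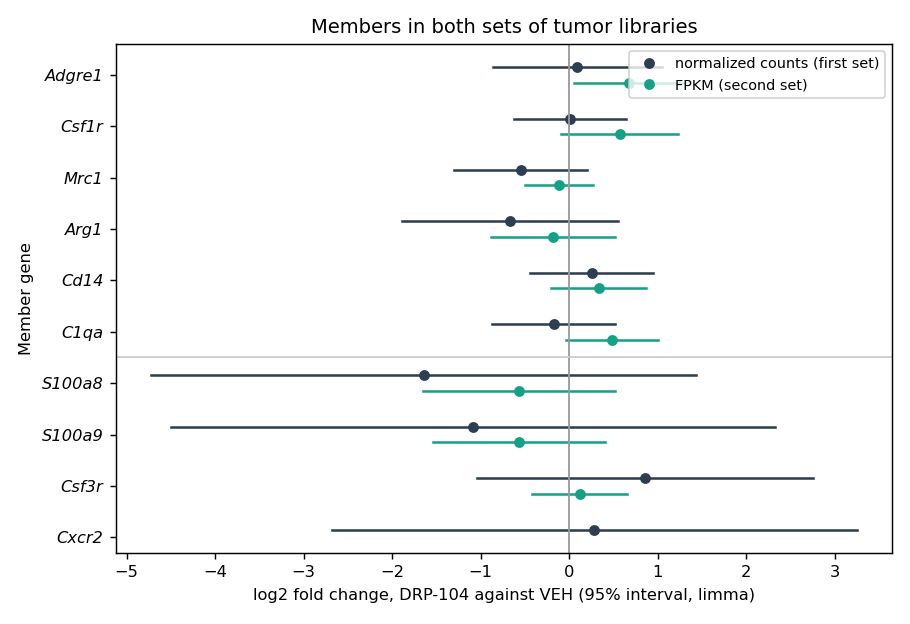
Log2 fold change of each member in DRP-104 against VEH tumors, with 95% limma intervals, in the first set (normalized counts, dark) and in the second set (FPKM, green). Intervals of the first set all cross 0, that of Adgre1 in the second set lies above 0 at an adjusted p-value of 0.629, and Cxcr2 was tested in the first set only.

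Fibroblast and endothelial genes lay on opposite sides of 0 in the sets. In the first set, fibroblast genes summed to 18527 to 32488 normalized counts with DRP-104 and 39156 to 82999 with VEH, and all 8 had log2 fold changes below 0 (median -1.13), with 4 whose groups did not overlap. All 6 endothelial genes were below 0 as well (median -0.51), with 4 not overlapping, beside 10.6% of all genes tested. In the second set the medians were 0.22 for fibroblast and 0.23 for endothelial genes, with 1 fibroblast gene higher without overlap and 0 endothelial genes, beside 19.3% of all genes, and the fibroblast sum reached 2961 FPKM in DRP-104 column 1, against 742 to 1263 in the other 5 columns. DRP-104 column 1 was also the highest of the 6 for Adgre1, Csf1r, Cd14 and C1qa. No gene of either list was called in either set, and the part of stroma in the values of the members was not tested. Of 26 further macrophage genes, 23 were tested in the first set with a median log2 fold change of -0.05 and 25 in the second with 0.30, and of 22 neutrophil genes 14 were tested with a median of -0.27 and 13 with -0.04. None of these was called. Pan-leukocyte genes, such as Cd53, Laptm5 and Lcp1, had medians of 0.38 and 0.05, with 0 of 9 called in each set. The medians of the dendritic cell (0.39 and 0.25), NK cell (0.67 and 0.068) and mast cell (-0.053 and -0.95) lists kept their sign between the sets, with 0 genes called. Those of the T cell (1.37 and -0.043) and B cell (0.16 and -0.28) lists changed sign, again with 0 called. In the second set only 2 dendritic cell, 1 NK cell, 3 mast cell, 4 T cell and 5 B cell genes were tested.

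The cultures show which members the tumor cells make on their own. In 3 CNT libraries of 27.1 to 48.2 M reads, 8 of the 10 members had under 30 reads in total. Adgre1 and Csf3r had 0 reads, C1qa, S100a9 and Cxcr2 had 2 each, S100a8 had 14, Arg1 16 and Csf1r 25. Mrc1 had 7557 reads and Cd14 had 5655. Lyz2, C1qb, C1qc and Tyrobp, which macrophages express strongly, were at 0 in every CNT library. Of the 26 further macrophage genes 14 were at 0 in all 3 libraries and 5 (Cd68, Fcgr3, Spp1, Gpnmb and Mertk) had a mean of at least 10, and of the 22 neutrophil genes 16 were at 0 and none reached 10.

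On the scale of reads per M reads (RPM), Mrc1 stood at 63.7, 58.6 and 87.9 in the CNT cultures and at 64.6, 133 and 89.3 in the VEH tumors. Cd14 stood at 54.0, 57.0 and 54.8 in culture and at 72.3, 43.9 and 38.1 in the tumors. For both genes the ranges overlapped. After joint scaling of the reads, the log2 difference of VEH tumors from CNT cells was 0.17 ± 0.24 (SE) for Mrc1, with an adjusted p-value of 0.560 from limma, and -0.40 ± 0.20 for Cd14, with 0.105. Without VEH tumor 1 that of Cd14 was -0.64, and it was then called lower in the tumors (adjusted p-value 0.00477, limma), beside 26.7% of all genes called lower with every library in the fit.

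The other members were far above the cells, and they are given as levels only, because their low counts in culture leave the minimum mean to be met by the tumors. Adgre1 stood at 11.97, 8.07 and 7.78 RPM in VEH tumors, at least 317-fold higher than the level that 3 reads over the CNT group would give, and Csf3r at 5.07, 1.30 and 2.59, at least 102-fold higher. C1qa stood at 89.8, 85.4 and 68.6, against 0, 0 and 0.042 in culture. Ratios of VEH to CNT were taken from the reads summed over a group, divided by its summed depth. The ratio was 182 for Csf1r (exact 95% counting interval 123 to 282), 404 for Arg1 (249 to 708) and 43.6 for S100a8 (25.6 to 80.5). For genes with 2 reads in culture the ratio was 4171 for C1qa (1154 to 34450.0), 375 for S100a9 (103 to 3109) and 42.4 for Cxcr2 (11.1 to 359). These intervals cover counting error only, and even counts made up 69.6% to 72.7% of the counts between 1 and 20 in cultures, against 41.9% to 46.6% in tumors, so culture counts may not be single counts.

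**Figure D4:**
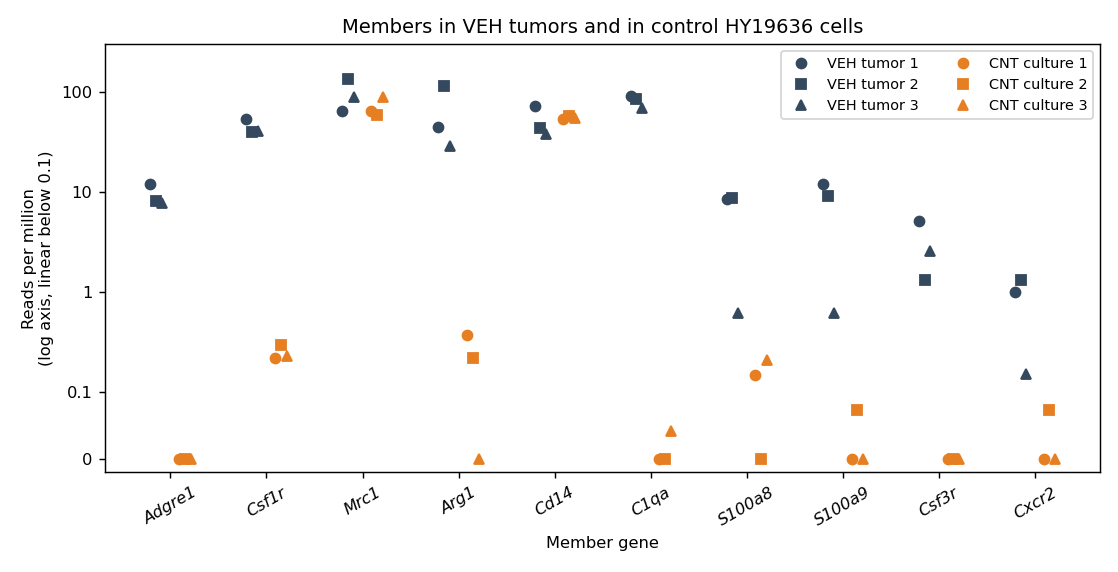
RPM (reads per M reads) of each member in the 3 VEH tumors (dark blue) and the 3 CNT cultures of HY19636 cells (orange), on a log axis that is linear below 0.1 so that 0 can be drawn. Mrc1 and Cd14 overlap between tumors and cells, and the other 8 members lie below 0.4 RPM in every culture.

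DON lowered both members that the cells express. Cd14 stood at 1842, 1939.5 and 1713 normalized counts in CNT cells and at 340.2, 302 and 327 after DON. All DON libraries were far under all CNT libraries, a log2 fold change of -2.50 ± 0.11, or 5.66-fold lower, with an adjusted p-value of 2.23e-10 from limma. Mrc1 stood at 2173, 1992 and 2750.0 in CNT cells and at 486, 326 and 416 after DON, a log2 fold change of -2.50 ± 0.15, or 5.64-fold lower (adjusted p-value 5.04e-09, limma). Among 13556 genes tested, 34.7% were called lower. The other 8 members were below the minimum mean of 10 in this comparison.

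Withdrawal of Gln separated them. Cd14 stood at 343, 382 and 510.5 in noGln cells, against 1736, 1832 and 1652 for the same CNT libraries in that table, a log2 fold change of -2.10 ± 0.14, or 4.28-fold lower (adjusted p-value 3.92e-08, limma). Mrc1 stood at 2238, 2218 and 2201 without Gln, inside the CNT range of 1882 to 2652, with a log2 fold change of 0.03 ± 0.12 and a 95% interval from -0.22 to 0.28. In this comparison 34.9% of genes were called lower. Both comparisons use the same 3 CNT libraries, so DON and noGln cells were also compared directly, a fit added after the values of Mrc1 were seen. Mrc1 was 5.64-fold lower after DON than without Gln (log2 fold change -2.50 ± 0.12, adjusted p-value 2.22e-10, limma). Cd14 was 1.29-fold lower (log2 fold change -0.37 ± 0.14, adjusted p-value 0.0322, limma), a call that was lost when DON library 2, DON library 3 or noGln library 3 was left out, with adjusted p-values of 0.0721, 0.0531 and 0.192. Of all genes tested 35.0% were lower after DON than without Gln.

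**Figure D5:**
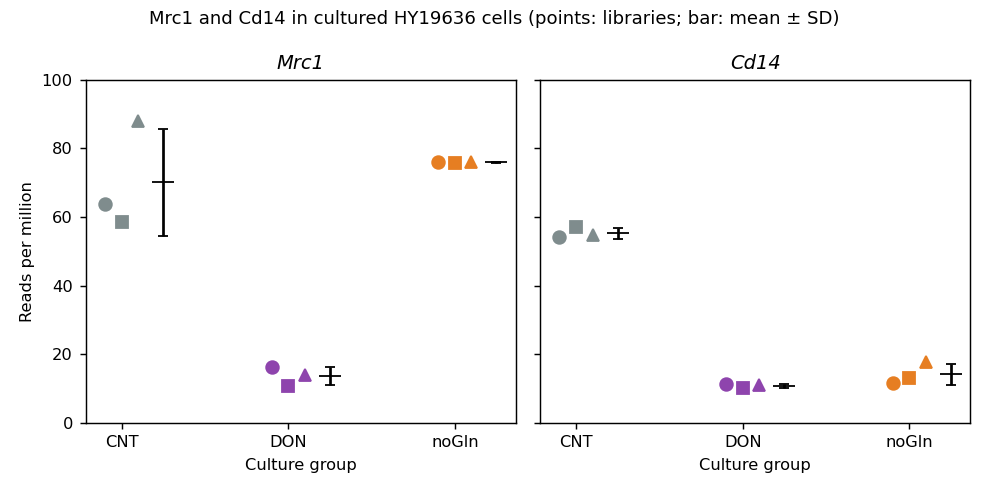
RPM (reads per M reads) of Mrc1 and Cd14 in CNT, DON and noGln cultures, with a symbol for each of the 3 libraries and a bar for the mean and SD. DON lies near 14 for Mrc1 and near 11 for Cd14, and noGln lies at the CNT level for Mrc1 and near 14 for Cd14.

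The epithelial genes of the line fell alongside. Of 8 such genes, 8 were called lower after DON (median log2 fold change -2.27) and 8 without Gln (median -1.70), beside 34.7% and 34.9% of all genes. Krt19, a duct keratin, stood at 92047 to 124490.0 normalized counts in CNT cells and at 11210.0 to 13101 after DON. Of the 5 further macrophage genes that the cells express, Cd68 and Gpnmb, both of lysosomes, were called higher after DON with log2 fold changes of 3.66 and 4.35, and Spp1, Fcgr3 and Mertk lower, beside 33.3% of all genes called higher and 34.7% lower. The part of these wider changes in the fall of Cd14 and Mrc1 was not tested.

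The promoter window of Mrc1, the member that DON lowered and Gln withdrawal did not, is shown for that reason, at chr2:14229164-14229463 on the plus strand of GRCm38.p6 with capitals as above.
Mrc1: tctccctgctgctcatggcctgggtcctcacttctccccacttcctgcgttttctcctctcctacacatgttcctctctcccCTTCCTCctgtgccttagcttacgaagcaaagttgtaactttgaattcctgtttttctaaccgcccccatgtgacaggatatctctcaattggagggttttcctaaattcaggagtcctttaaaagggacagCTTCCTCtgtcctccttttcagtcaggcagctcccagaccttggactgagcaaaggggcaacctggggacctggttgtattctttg

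It held 2 matches to GAGGAAG, both on the minus strand, at positions -168 and -36, and 0 to TTGCNNAA.

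The effect in tumors differed from that in cells for both genes. The treatment effect in tumors (DRP-104 against VEH) minus that in cells (DON against CNT) was 2.75 ± 0.34 on the log2 scale for Cd14, with an adjusted p-value of 3.86e-05 from limma. For Mrc1 it was 1.95 ± 0.40, with an adjusted p-value of 0.00176. Both were also called when each library was left out in turn, and 37.3% of the genes tested were called. In tumors, Cd14 and Mrc1 reads come from a mixture of cells, and the share that tumor cells contribute was not measured. Drug, time and route differ between the arms and cannot be told apart.

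The ligands of the member receptors were made by the cells as well. Of 8 ligands fixed for Csf1r (Csf1 and Il34), Csf3r (Csf3) and Cxcr2 (Cxcl1, Cxcl2, Cxcl3, Cxcl5 and Ppbp), 7 had a mean of at least 10 normalized counts in CNT cells, with Cxcl2 the exception. Il34, an alternative ligand of Csf1r, was the highest at 760, 862 and 573, followed by Csf1 at 433, 559 and 521. Of 6 ligands tested after DON, 1 was called higher and 4 lower, beside 33.3% and 34.7% of all genes. Csf3, the granulocyte growth factor, fell from 57.9 to 90.3 in CNT cells to between 3.69 and 6.72 after DON, a log2 fold change of -3.63 ± 0.41. Cxcl5, a neutrophil attractant, fell from 151 to 176 to between 13.9 and 16.7, a log2 fold change of -3.38 ± 0.27. Ppbp and Cxcl3 were lower by log2 fold changes of -3.26 and -1.89, and Csf1 had -0.21 with an adjusted p-value of 0.174 from limma. Il34 was called higher by 0.42, although its groups overlapped, with 1071, 772 and 1080 after DON.

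Without Gln, Csf1 stood at 915, 812 and 728 against 408, 528 and 502 for CNT, so that the groups did not overlap, and it was called higher by a log2 fold change of 0.77 ± 0.13. Il34 was called higher by 0.88 ± 0.15. Cxcl5 and Ppbp were called lower, by -2.04 and -2.96, and Csf3, at 86.7, 92.9 and 94.1 against 54.5, 68.4 and 87.1, had a log2 fold change of 0.40 with an adjusted p-value of 0.141 from limma. Thus 2 of 7 ligands tested were higher and 2 lower, shares near those of all genes, at 34.5% higher and 34.9% lower.

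In the tumors none of the 8 ligands was called in either set. In the first set their log2 fold changes lay between -0.87 (Cxcl2) and 1.31 (Ppbp), with a median of 0.03, and in the second between -0.81 (Cxcl1) and 0.44 (Csf1), with a median of -0.07. Il34 was the steadiest, at 895 to 1143 normalized counts in all 6 tumors, and Csf1 varied from 137 in DRP-104 tumor 2 to 588 in DRP-104 tumor 3. Of 12 partners of the members, 11 were tested in each set and 0 called. Tyrobp, the adaptor of myeloid receptors, was lowest in DRP-104 tumor 2 (127) and highest in DRP-104 tumor 3 (436). C1qb and C1qc had their lowest and highest values in the same tumors. Tlr4 and Ly96, which act with Cd14, were present in CNT cells at 400 ± 154 and 89.7 ± 50.4 normalized counts (SD, n = 3). Ly96 was called higher without Gln by a log2 fold change of 1.61 ± 0.30, while Cd14 fell.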

How the data were processed

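RNA-seq of 9 cultures and 6 tumors was analyzed from the tables that the authors deposited. The signal in 3 tables is the gene count divided by 1 size factor per library, estimated within each table by the authors, and the FPKM table, also deposited by the authors, holds 6 tumor columns normalized for length and library size. According to the methods, reads were aligned with HISAT2 and tested with DESeq2. The submitters' processing notes also name CASAVA, STAR 2.5 and GRCm39, while coordinates in the FPKM table fit GRCm38. The counting tool and the use of strand are not given in the sources used here. The control columns of the culture tables carry names like those of the vehicle tumors and were taken as CNT from the tables' titles. Their reads were the same in both culture tables for 55291 genes. FPKM columns were used by group. Columns of fold changes and p-values from the authors' comparisons were not used.

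Whole reads were recovered from the value that 1 read takes in each column, with a tolerance of 0.0051, and at least 99.99% of values were whole. In noGln library 3, 1 read was worth 1.001, so this check rests there on its higher values. Depth was 25.2 to 48.2 M reads in cultures, 16.3 to 20.7 M in tumors and 18.4 to 23.0 M in FPKM columns. The libraries carried no molecular identifiers that would tell copies of a molecule apart, so counting intervals and lower bounds (3 reads over a group) cover counting error only.

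Because the values are normalized, limma 3.58.1 (R 4.3.3, lmFit and eBayes with trend) was fitted to log2(value + 1) of all genes with a mean of at least 10 (FPKM at least 0.5), with Benjamini-Hochberg adjustment and calls at an adjusted p-value under 0.05. Fold changes are on that scale, which understates changes of low genes. With 3 against 3 samples an exact permutation test cannot go below 0.1, so adjusted p-values are those of limma. VEH tumors and CNT cells, and DON and noGln cells, were compared on recovered reads scaled together. Alternatives were DESeq2 1.42.0 and edgeR 4.0.16 on the recovered reads, another filter and pseudocount, quantile normalization, a replicate block and leaving out each library. Scripts were tested on simulated data. Python 3.11.15 with numpy 2.4.6, pandas 2.3.3, scipy 1.17.1 and matplotlib 3.10.9 was used.

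The members, the marker lists and the tests were chosen with earlier results of these data known. Named genes are the 10 members, their listed ligands and partners, the 3 highest genes of each further list, those called or not overlapping in the same direction in both tumor tables, and the 5 genes nearest to each mean member pattern. Other genes were named after their values were seen, as stated where they appear or where a list's members were counted. Promoter windows came from RefSeq (GRCm38.p6). Of 10 members, 5 matched by symbol. Like-numbered tumors did not deviate together (correlations of -0.44, 0.05 and -0.46), so the numbers were not taken to pair tumors.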

Additional observations from a re-analysis of the deposited data

Results flagged for a closer look

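Mrc1 was singled out because its response differed between tumors and cells. The treatment effect in tumors (DRP-104 against VEH, log2 fold change -0.55) minus that in cells (DON against CNT, -2.50) was 1.95, with an adjusted p-value of 0.00176 from limma. Cd14 was singled out for the same reason, with log2 fold changes of 0.25 in tumors and -2.50 in cells, a difference of 2.75 and an adjusted p-value of 3.86e-05 from limma.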

How the results depend on the processing

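No member was called in DRP-104 against VEH tumors under any alternative, in either set. In the first set, DESeq2 on recovered reads called 69 genes instead of 0, and the replicate block gave 0 genes and 0 members called, with Mrc1 at a log2 fold change of -0.55. Like-numbered tumors did not deviate together, so the block has no basis in the design. Leaving out each library in turn gave ranges of log2 fold changes that crossed 0 for Adgre1 (-0.28 to 0.55), Csf1r (-0.18 to 0.34), Cd14 (-0.012 to 0.50), C1qa (-0.52 to 0.13), S100a9 (-2.41 to 0.44) and Cxcr2 (-0.55 to 1.69). For S100a8 the range was -2.96 to -0.66. In the second set, ranges crossed 0 for Arg1 (-0.35 to 0.14) and Csf3r (-0.078 to 0.35), and genes called over the whole table were 0 to 1. For noGln cells, Mrc1 had a log2 fold change of -0.030 with quantile normalization and -0.071 to 0.177 with each library left out. Without CNT library 3 it was called higher (0.18, adjusted p-value 0.0435, limma), so that 1 to 2 members were called, and with no filter 2 members were called. With no filter, DON against CNT called 3 members instead of 2. In VEH tumors against CNT cells, Mrc1 ranged from -0.12 to 0.45 and Cd14 from -0.64 to -0.21. DON against noGln cells gave 1 to 2 members called, with Cd14 at -0.49 to -0.21. The causes were not tested. All fold changes of Mrc1 and Cd14 in DON against CNT kept their direction and side of the threshold (22 of 22 values). So did those of the difference between tumors and cells (26 of 26 values), and of 368 values in all comparisons 344 did. The 368 include 81 values of VEH tumors against CNT cells. Most of those 81 come from members that met the minimum mean through the tumors only, so their direction was fixed in advance. The replicate block was not run for the second set, for the cultures, for VEH tumors against CNT cells or for the difference between tumors and cells, because those columns are tied to a group only. S100a8, S100a9, Csf3r and Cxcr2 rested on 1 to 20 reads in some tumors, where counting error is large. The part of counting error in their spread was not tested.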
